A study of Triticum aestivum and Triticum turgidum subsp. durum with 27 samples.

Results

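The redox and antioxidant enzymes described here are 35 probe sets of the 61290 on the Affymetrix Wheat Genome Array. They were selected on the study's own list of drought-responsive probe sets, by a description that names peroxidase, glutathione, thioredoxin, glutaredoxin, catalase, superoxide, ascorbate or peroxiredoxin. The list was made from these same arrays and holds probe sets that differed in at least 1 of 9 comparisons between water regimes within a genotype. Every drought change of these 35 probe sets is therefore a description with no test, while genotype differences averaged over the water regimes, which the list did not use, were tested. Of the list, 1420 probe sets were used here, 1067 of them with a description. They gave 10 class III peroxidases, 16 glutathione S-transferases (GST), 6 probe sets of the thioredoxin system and 3 of the ascorbate cycle, and none with catalase, superoxide, glutaredoxin or peroxiredoxin in its description. The rest of the list was not used here, so enzymes of these kinds may stand in it. The 35 probe sets belong to 26 UniGene clusters and match 19 Arabidopsis genes, so probe sets of a cluster are not independent of each other. Enzymes are named by their description and Arabidopsis code. Where several wheat sequences share a name they are told apart by letters given from the brightest (A) down, and at, a_at, x_at and s_at are the array's suffixes for probe sets of 1 sequence. Statements that arrays overlap or lie apart refer to the deposited intensities, unless centred values are named. The plots of changes and differences pair each name with its probe set ID.

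Glume RNA was hybridised to 27 arrays, 3 biological replicates for each of 9 combinations of genotype and water regime. The genotypes were the durum wheat cultivar Creso, the bread wheat cultivar Chinese Spring (CS), and CS_5AL-10, a single Chinese Spring stock that has lost the end of the 5A long arm. CTRL plants were watered to a soil water content of 28%, mild stress (MS) plants were dried to 18% and severe stress (SS) plants to 12.5%, with watering stopped soon after anthesis. The labels give glumes of 7 days after anthesis for Creso and of 10 days for CS and CS_5AL-10, while the study's methods name later days for both, so genotype and age of the glume cannot be told apart. Durum wheat has no D genome, and a probe set designed on a sequence that a genotype lacks or carries in another form gives a low signal, which cannot be told apart from low expression.

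Plants hold reactive oxygen species in check with enzymes that pass electrons through ascorbate, glutathione and thioredoxin. Ferredoxin-thioredoxin reductase (FTR) carries electrons from the light reactions to chloroplast thioredoxins, ascorbate peroxidase (APX) removes hydrogen peroxide, and monodehydroascorbate reductase (MDAR) regenerates ascorbate. Class III peroxidases are secreted enzymes that use peroxide in the cell wall, for example to couple lignin precursors, and GSTs join glutathione to reactive or foreign compounds. Glumes are the green bracts that enclose the wheat grain.

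The arrays resembled green tissue, since the 6 of 8 photosynthesis marker probe sets that passed the filter had mean log2 values of 13.33 to 14.9, and none of the 4 anther probe sets passed the filter on low values. RNA of storage proteins of the endosperm varied strongly between the arrays. Over 17 probe sets, the mean log2 was 5.59 to 6.61 on the Creso arrays other than MS replicate 1, which reached 9.55. It was 11.45 to 11.88 on CS CTRL arrays, 6.07 to 11.28 on CS MS, 6 to 10.68 on CS SS, 9 to 11.21 on CS_5AL-10 CTRL, 7.4 to 10.9 on CS_5AL-10 MS and 6.96 to 11.65 on CS_5AL-10 SS. Between genotypes averaged over the water regimes 15 of the 17 were higher in CS than in Creso and 11 in CS_5AL-10 than in Creso, while under drought 1 was called, lower in CS SS. A fit that holds the endosperm level as a covariate is given beside the results it alters.

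The 35 probe sets all passed the filter, with a median over probe sets of the mean log2 signal of 10.33 against 8.46 for the 34089 probe sets tested. Their level stood above the array median in all 9 groups for 24 of 35. The thioredoxin system was brightest, with a median log2 level of 12.11, followed by the ascorbate cycle with 11.5, the class III peroxidases with 9.99 and the GSTs with 9.5. Levels of different probe sets depend on their probes, so this order is one of signal, not of transcript number. Between the genotypes averaged over the water regimes, CS exceeded Creso in 5 probe sets and was below it in 9, against 14.9% and 13.1% of all tested. In CS_5AL-10 against Creso 6 were higher and 8 lower, against 15.1% and 15.9% of all, and in CS_5AL-10 against CS 2 were higher and none lower, against 1.28% and 2.03%. The counts against Creso include probe sets that passed the filter only through the genotypes in which they were bright. They are phi GST E and tau GST F among those higher, and ATP32 B among those lower. In CS_5AL-10 against Creso PER32 is also among those higher. For these probe sets the difference is a description and not a test. A difference was called at an adjusted p under 0.05 in limma with at least 2-fold change, and all fold changes are on the scale of log2(intensity + 16).

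In at least 1 drought comparison 32 of the 35 passed the same thresholds, against 16.2% of all tested, which follows from how they were chosen. Under SS, 3 rose past them and 9 fell in Creso (4.45% and 2.87% of all tested), 7 and 14 in CS (3.61% and 2.26%), and 7 and 12 in CS_5AL-10 (2.72% and 2.97%). Under MS the counts were 0 and 2 in Creso (0.707% and 0.572% of all), 5 and 3 in CS (1.71% and 0.613%), and 0 and 3 in CS_5AL-10 (0.777% and 1.5%). The median log2 change under SS was -0.44 for Creso, -0.96 for CS and -0.42 for CS_5AL-10, where the medians of all tested were 0.13, 0.06 and 0.06. The enzyme groups differed in direction, as the plot of SS changes by enzyme shows.

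**Figure D1:**
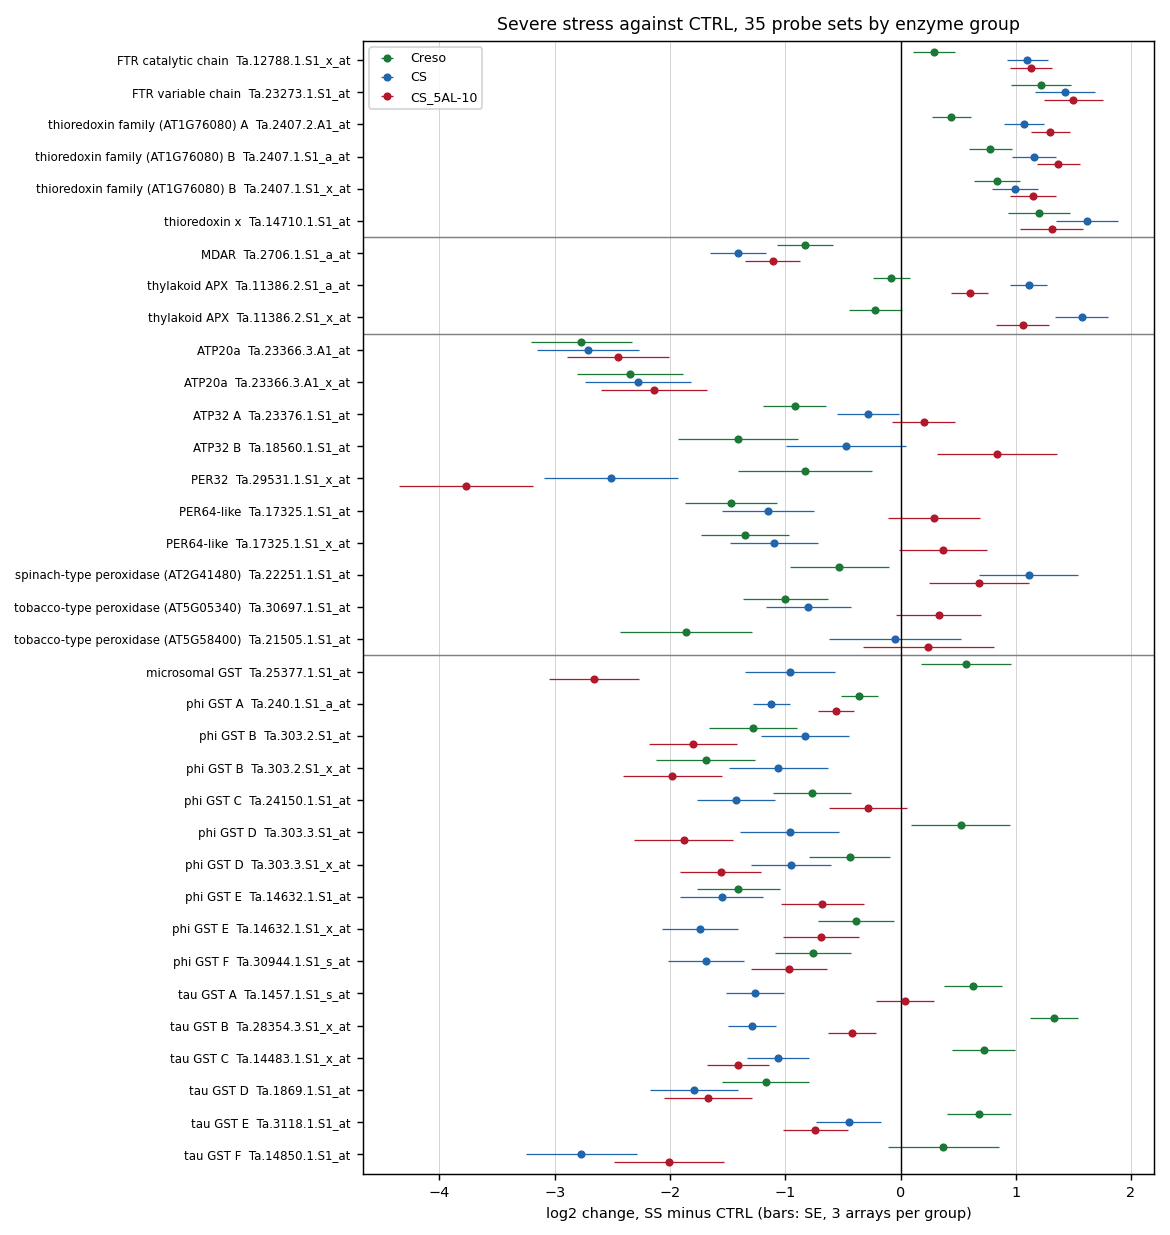
Log2 change of each of the 35 probe sets in SS against CTRL plants (horizontal axis), by enzyme group, with the standard error of the fit as bars and 1 colour per genotype (3 arrays per group). The 6 thioredoxin-system probe sets lie between 0.29 and 1.62 in all genotypes, while most GST probe sets of CS and CS_5AL-10 lie below 0. These changes served to choose the probe sets and carry no test.

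The thioredoxin system was the only enzyme group in which every probe set had a positive SS change in all genotypes. Its median log2 change under SS was 0.81 for Creso, 1.13 for CS and 1.3 for CS_5AL-10, and 2, 5 and 6 of the 6 passed the thresholds. Under MS the medians were 0.37, 0.98 and 0.85. The FTR variable chain (AT5G08410) had intensities of 1195, 860 and 1392 on the Creso CTRL arrays, 1387, 968 and 2382 under MS and 2905, 1767 and 2756 under SS. In CS it had 1651, 1228 and 1400 in CTRL, 2502, 3224 and 2826 under MS and 4325, 3341 and 3521 under SS. In CS_5AL-10 the series ran 1350, 1569 and 1130, then 2384, 2695 and 3095, then 3578, 3966 and 3371. All SS arrays lay above all CTRL arrays of their genotype, with log2 changes of 1.22, 1.43 and 1.5 (SE 0.26 each). The difference between the bread wheats and Creso over the water regimes was not called.

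Thioredoxin x (AT1G50320), a chloroplast thioredoxin known in Arabidopsis for reducing peroxiredoxin, had the largest rise among the 35, a log2 change of 1.62 (SE 0.27) in CS SS. Its intensities there were 608, 347 and 320 in CTRL, 645, 737 and 1173 under MS and 1290, 1184 and 1257 under SS. Creso went from 688, 769 and 665 in CTRL to 1791, 1363 and 1383 under SS, and CS_5AL-10 from 422, 308 and 366 to 777, 831 and 1030. No SS array overlapped a CTRL array of its genotype. Averaged over the water regimes thioredoxin x was lower in CS_5AL-10 than in Creso by a log2 difference of -1.19 (SE 0.16, adjusted p = 3.6e-07, limma). That difference was -0.99 with the endosperm covariate and -0.92 with uncentred arrays, below 2-fold in each.

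The FTR catalytic chain (AT2G04700) was bright in Creso whatever the watering, with 18910, 18370 and 18591 in CTRL, 14038, 15954 and 18325 under MS and 21784, 19658 and 21127 under SS. CS had 6155, 5087 and 5219 in CTRL and 11882, 11852 and 10411 under SS, and CS_5AL-10 had 4631, 4451 and 3568 in CTRL and 9047, 9568 and 7589 under SS. No bread wheat array reached a Creso array. Over the water regimes the log2 difference from Creso was -1.42 in CS (SE 0.11, adjusted p = 2.1e-11) and -1.79 in CS_5AL-10 (SE 0.11, adjusted p = 2.1e-13). Under SS the log2 changes were 1.1 in CS and 1.13 in CS_5AL-10 against 0.29 in Creso (SE 0.18 each), and the CS value was 0.91 with the endosperm covariate.

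A thioredoxin-family protein, known in Arabidopsis (AT1G76080) as a chloroplast protein induced by drought, was measured by 3 probe sets of 1 cluster, 1 for sequence A and 2 for sequence B. Sequence A, the brightest of the thioredoxin group, had 13915, 14565 and 19191 in Creso CTRL and 16721, 19951 and 22085 in Creso SS. It had 6329, 6838 and 4484 in CS CTRL and 11051, 12857 and 11556 in CS SS, and 5764, 5024 and 4282 in CS_5AL-10 CTRL and 13094, 11780 and 10310 in CS_5AL-10 SS. CTRL and SS arrays overlapped in Creso and were apart in the bread wheats. The log2 changes under SS were 0.44 for Creso, 1.07 for CS and 1.3 for CS_5AL-10 (SE 0.17), and for the 3 probe sets together they ran from 0.44 to 1.37. The genotype difference depended on the probe set. Sequence A was lower than in Creso by a log2 difference of -1.21 in CS (adjusted p = 1.2e-10) and -1.3 in CS_5AL-10 (adjusted p = 2.6e-11), with no overlap of arrays, but both were under 2-fold after quantile normalization at -0.82 and -0.86. The x_at probe set of sequence B differed by 0.75 and 0.66 in the opposite direction, under 2-fold.

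The photosynthesis markers moved in the same direction as these chloroplast enzymes in the bread wheats. Their mean log2 was 13.33 to 13.61 on CS_5AL-10 CTRL arrays against 14.11 to 14.33 under SS, 13.79 to 14.15 on CS CTRL arrays against 14.09 to 14.5 under SS, and 14.59 to 14.9 in Creso CTRL against 14.47 to 14.74 under SS. Their part in the changes was not tested. With the endosperm covariate the median SS change of the thioredoxin system was 0.82 for Creso, 0.98 for CS and 1.22 for CS_5AL-10. The plot of enzyme group level against endosperm level sets the values array by array.

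**Figure D2:**
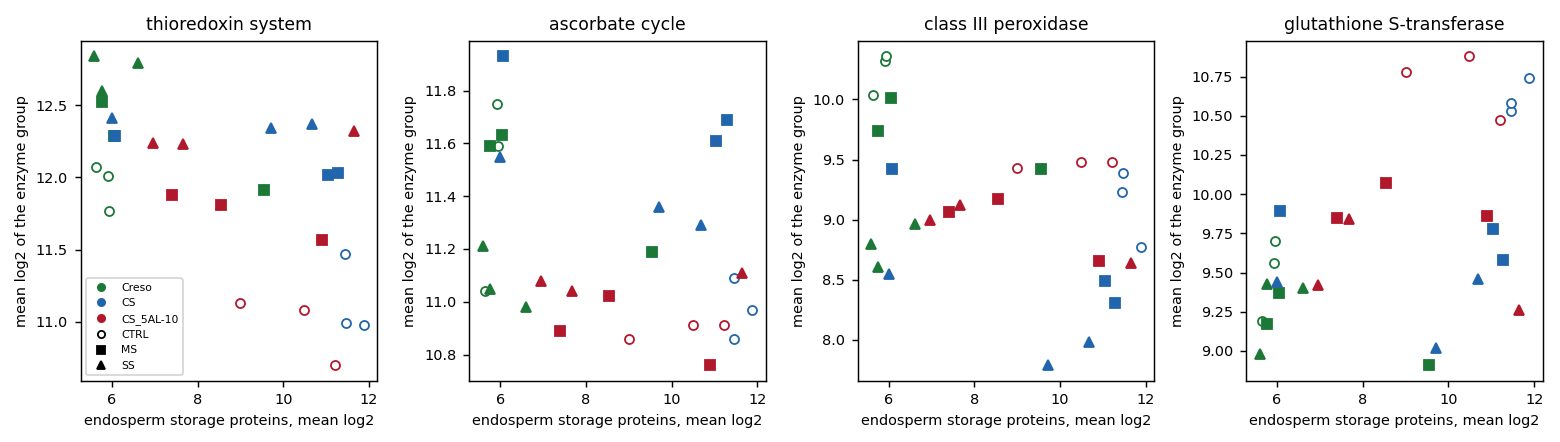
Mean log2 signal of each enzyme group on every array (vertical axis) against the mean log2 signal of 17 endosperm storage-protein probe sets on the same array (horizontal axis), with colour for genotype and symbol for water regime. The CTRL arrays of CS and CS_5AL-10, with an endosperm level of 9 to 11.88, have thioredoxin-system levels of 10.7 to 11.47, and the SS arrays of the same genotypes lie at 12.23 to 12.41 over endosperm levels of 6 to 11.65.

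The ascorbate cycle was split between its 2 enzymes. Thylakoid APX (AT1G77490), measured by 2 probe sets of 1 cluster, had positive MS and SS changes in CS, while MDAR fell past the thresholds under SS in both bread wheats. The x_at probe set of APX had 688, 481 and 601 in CS CTRL, 1517, 1581 and 1713 under MS and 1727, 1946 and 1485 under SS. In CS_5AL-10 it had 591, 537 and 668, then 814, 852 and 780, then 1265, 1490 and 908. Creso had 2195, 2028 and 1351 in CTRL, 2269, 2640 and 2792 under MS and 1158, 1339 and 1833 under SS. All SS arrays lay above the CTRL arrays in the bread wheats, and Creso CTRL and SS arrays overlapped. The log2 changes under SS were 1.57 for CS, 1.06 for CS_5AL-10 and -0.22 for Creso (SE 0.23 each), and those under MS were 1.61, 0.4 and 0.56. The second APX probe set, a_at, had 1.11, 0.6 and -0.08 under SS (SE 0.16). Over the water regimes the x_at probe set was lower in CS_5AL-10 than in Creso by -1.42 log2 units (SE 0.13, adjusted p = 9.4e-10). The brighter a_at probe set had -0.69 there, under 2-fold, and in CS the x_at and a_at probe sets had -0.91 and -0.02. In CTRL plants, as a description, x_at was lower by -1.86 in CS and -1.8 in CS_5AL-10, and a_at by -0.69 and -0.82.

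MDAR (AT5G03630) had 6056, 9148 and 8113 in CS CTRL, 4901, 4469 and 6011 under MS and 2636, 3375 and 2388 under SS. CS_5AL-10 went from 6893, 7218 and 5913 in CTRL through 4628, 5492 and 5104 to 3209, 2215 and 3493, and Creso from 3521, 3861 and 2058 through 1512, 1490 and 1806 to 1845, 1706 and 1174. CTRL and SS arrays did not overlap in any genotype, with log2 changes of -1.41 for CS, -1.11 for CS_5AL-10 and -0.83 for Creso (SE 0.24 each). MDAR was higher in CS than in Creso over the water regimes by 1.04 (SE 0.14, adjusted p = 5.0e-07). This is at the 2-fold limit, and it was 0.93 without Creso CTRL replicate 3, 0.99 without Creso MS replicate 1 or CS SS replicate 2, and 0.98 without Creso SS replicate 3 or CS MS replicate 3.

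**Figure D3:**
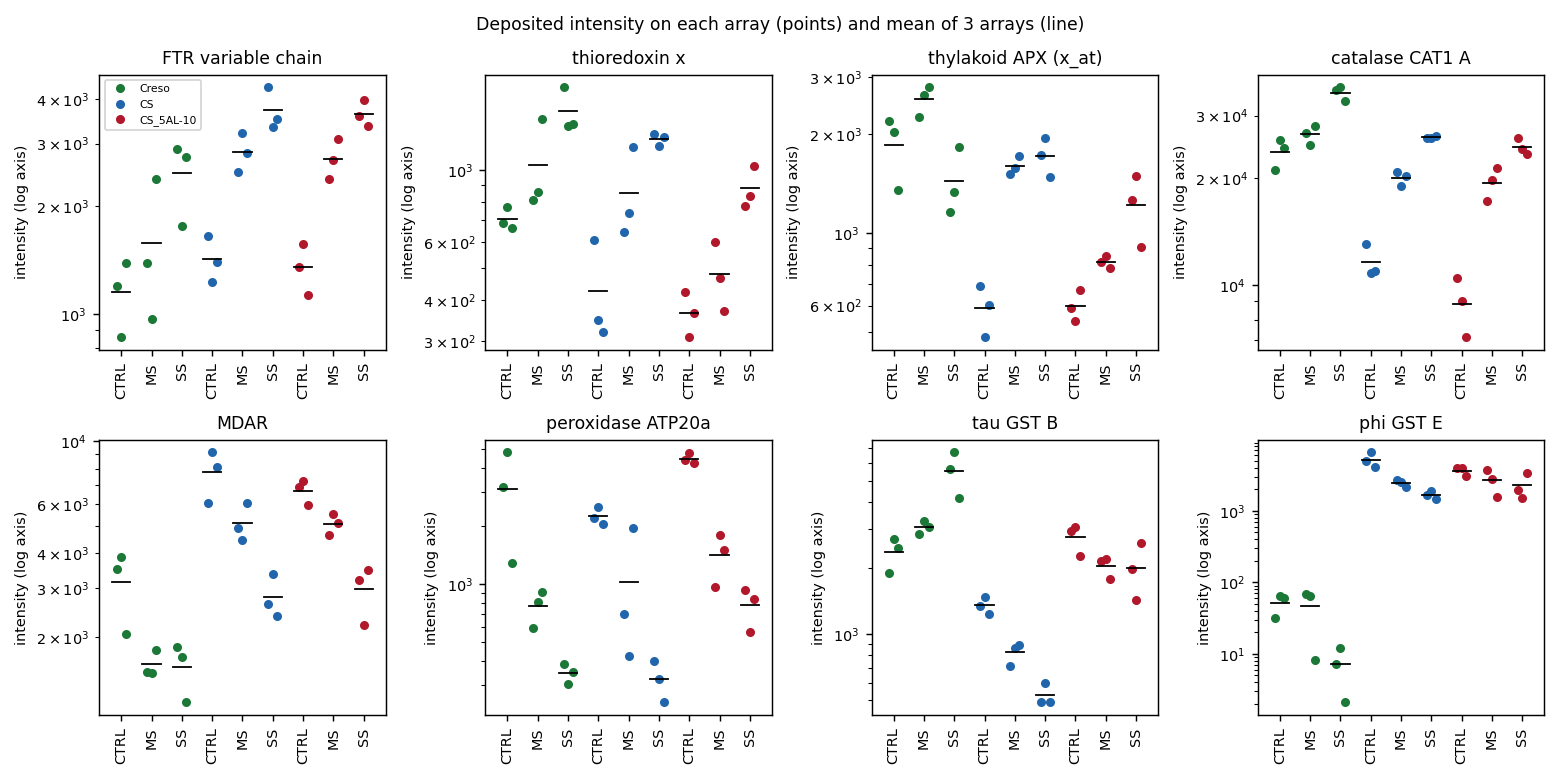
Deposited intensity on each array (points, logarithmic vertical axis) and the mean of 3 arrays (line) for 8 redox enzymes by genotype and water regime, including catalase CAT1 A, which comes from the platform annotation and not from the 35 probe sets. FTR variable chain, thioredoxin x and CAT1 A have SS points above all CTRL points in every genotype, peroxidase ATP20a and MDAR have SS points below all CTRL points, and tau GST B moves up in Creso and down in CS.

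The class III peroxidases differed in direction by gene and genotype. Their median log2 change under SS was -1.38 for Creso, -0.95 for CS and 0.27 for CS_5AL-10, and 5, 3 and 3 of the 10 fell past the thresholds while none rose past them. The CS median was -1.51 with the endosperm covariate. ATP20a, matching Arabidopsis AT5G14130, had large negative changes in every genotype. Its first probe set (at) had 3189, 4796 and 1286 in Creso CTRL, 591, 808 and 909 under MS and 388, 306 and 351 under SS. CS had 2195, 2496 and 2052 in CTRL, 697, 424 and 1956 under MS and 400, 323 and 245 under SS, and CS_5AL-10 had 4388, 4763 and 4205, then 965, 1802 and 1492, then 929, 564 and 842. All MS and SS arrays were below the CTRL arrays of their genotype, and the SS log2 changes were -2.77, -2.71 and -2.45 (SE 0.44). The second probe set (x_at) had -2.35, -2.28 and -2.14.

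PER32 had the largest change of all 35 probe sets, -3.86 in CS_5AL-10 under MS (SE 0.58). It had 305, 310 and 694 on CS_5AL-10 CTRL arrays, 5.42, 45.7 and 3.85 under MS and 8.41, 26.8 and 7.82 under SS. In CS the CTRL values were 153, 260 and 125, those under MS 3.45, 4.08 and 77.8, and those under SS 10.4, 38.3 and 6.52. Creso was low throughout, with 20.3, 41.7 and 7.08 in CTRL and 2.94, 3.29 and 1.99 under SS. The stressed arrays were below all CTRL arrays in both bread wheats. PER32 passed the filter only through the CTRL groups of the bread wheats, and no Creso array was above the array median. With Creso taken at that median, CTRL plants were at least 1.79-fold higher in CS and at least 4.095-fold higher in CS_5AL-10, a description since the CTRL arrays helped to choose the probe set. The stressed bread wheat arrays and the Creso arrays lie near the lowest signals of the array, where log2 values depend on the added constant of 16.

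The PER64-like peroxidase (AT5G51890), measured by 2 probe sets, was brightest in Creso in CTRL and MS plants. Its at probe set had 8932, 7970 and 10691 in Creso CTRL, 8653, 13235 and 7460 under MS and 3023, 2590 and 3463 under SS. CS ran from 2507, 4330 and 2331 in CTRL through 2172, 1562 and 3211 to 591, 2805 and 1232, and CS_5AL-10 from 3536, 2947 and 3112 through 3557, 3231 and 4101 to 4607, 2142 and 5169. Creso SS arrays were below all Creso CTRL arrays, while SS and CTRL arrays overlapped in both bread wheats, with changes of -1.47, -1.15 and 0.29 (SE 0.4). The 2 probe sets were lower in CS than in Creso over the water regimes by -1.89 and -1.94 (adjusted p = 1.6e-07 and 4.2e-08), and in CS_5AL-10 by -1.13 and -1.17 (adjusted p = 1.5e-04 and 5.6e-05). With the endosperm covariate the CS_5AL-10 differences were -0.5 and -0.5, and with uncentred arrays -0.87 and -0.9, under 2-fold in each case.

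The tobacco-type peroxidase AT5G05340 had a like course, with 4342, 4103 and 4863 in Creso CTRL, 5301, 7404 and 6645 under MS and 2066, 1644 and 2366 under SS. In CS the values were 2667, 4038 and 2236 in CTRL and 783, 2816 and 1847 under SS, and in CS_5AL-10 they were 3082, 2766 and 2965 in CTRL and 3369, 2574 and 4975 under SS. Creso SS arrays stood apart from Creso CTRL, and the bread wheat arrays overlapped. The brightest peroxidase, ATP32 A, had 5458, 5217 and 6211 in Creso CTRL, 4914, 7388 and 7287 under MS and 3026, 2589 and 2503 under SS. Its SS changes were -0.92 for Creso, -0.28 for CS and 0.2 for CS_5AL-10 (SE 0.27), and only the Creso groups did not overlap.

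ATP32 B and the spinach-type peroxidase (AT2G41480) were dim in the bread wheats. ATP32 B had 158, 176 and 258 in Creso CTRL against 3.49, 3.98 and 82.2 in CS CTRL and 21.5, 8.39 and 11.2 in CS_5AL-10 CTRL. It passed the filter only through Creso CTRL and MS, and its bread wheat arrays were not above the array median. With these taken at that median, Creso was at least 1.36-fold higher over the water regimes than either bread wheat. This is a description, since the filter was passed only where the probe set was bright. The spinach-type peroxidase had 205, 293 and 346 in Creso CTRL against 65.7, 63.5 and 1.87 in CS CTRL and 48.5, 43.8 and 68 in CS_5AL-10 CTRL. It was lower by -1.82 in CS (SE 0.25, adjusted p = 8.7e-07) and -1.61 in CS_5AL-10 (adjusted p = 4.3e-06). A single bread wheat array, CS SS replicate 1 with 170, reached the range of the deposited Creso values, which began at 146. The last of the group, the tobacco-type peroxidase AT5G58400, was dim, with 83.2, 172 and 99.6 in Creso CTRL and 39.1, 4.96 and 13.8 under SS.

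GST changes were mostly negative in the bread wheats. Under SS the median log2 change of the 16 probe sets was -1.19 in CS and -1.19 in CS_5AL-10 against -0.38 in Creso, and 10, 8 and 4 fell past the thresholds, while 1 rose past them in Creso. The 9 phi-class probe sets, which all match Arabidopsis AT3G62760, had medians of -0.76 for Creso, -1.12 for CS and -0.97 for CS_5AL-10. The 6 tau-class probe sets, like phi a class found in plants, had medians of 0.65, -1.28 and -1.07. The sign of the tau-class median in Creso was thus opposite to that in the bread wheats, and the difference was not tested because the same changes chose the probe sets.

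Among phi GSTs the brightest was phi GST A, with 12112, 11658 and 11565 in Creso CTRL and 8862, 8500 and 7733 under SS. CS had 12098, 15194 and 15730 in CTRL and 6077, 6885 and 6017 under SS, and CS_5AL-10 had 16256, 15613 and 14688 in CTRL and 10932, 8430 and 10772 under SS. SS arrays were below CTRL arrays in all genotypes, with log2 changes of -0.36, -1.12 and -0.56 (SE 0.16). Phi GST B (at) had 13897, 23098 and 7686 in Creso CTRL and 6733, 4965 and 3884 under SS. CS_5AL-10 went from 12086, 11273 and 8600 to 2842, 2915 and 2816, and CS from 7434, 8780 and 9356 to 2302, 5686 and 7522, where SS replicate 3 lies within the CTRL range. The 4 probe sets of phi GST B and D, which share a cluster, changed by -1.98 to -1.56 in CS_5AL-10 SS, by -1.06 to -0.83 in CS SS and by -1.69 to 0.52 in Creso SS.

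A single phi GST separated the genotypes more than any other of the 35 probe sets. Phi GST E (at) had 31.2, 64.5 and 60.5 in Creso CTRL, 69.6, 64 and 8.16 under MS and 7.3, 12.1 and 2.09 under SS. CS had 4972, 6575 and 4035 in CTRL, 2665, 2565 and 2132 under MS and 1658, 1904 and 1458 under SS, and CS_5AL-10 had 3914, 3959 and 3041, then 3745, 2804 and 1581, then 1934, 1513 and 3332. The lowest bread wheat array was far above the highest Creso array, and the CS arrays of MS and SS were below those of CTRL. Over the water regimes the log2 difference from Creso was 5.75 in CS (SE 0.21) and 5.69 in CS_5AL-10, and the second probe set of phi GST E had 5.45 and 5.42. Phi GST E passed the filter only through the bread wheats, and 1 of 9 Creso arrays of the at probe set was above the array median. These differences therefore depend on the added constant and are a description, given without a p-value. With Creso taken at the array median, the second probe set was at least 26.3-fold higher in CS and at least 25.7-fold higher in CS_5AL-10 over the water regimes. In CS_5AL-10 against CS the probe set was not called. Phi GST F (s_at) was higher than in Creso by 2.27 in CS (adjusted p = 2.2e-10) and 2.33 in CS_5AL-10 (adjusted p = 1.2e-10), with 379, 308 and 168 in Creso CTRL against 2124, 1863 and 1957 in CS CTRL. An at probe set of the same sequence, dimmer and not among the 35, overlapped between them. It had 106, 171 and 110 in Creso CTRL and 119, 246 and 158 in CS CTRL.

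Tau GST B (AT1G10360) moved up in stressed Creso and down in stressed CS. It had 1905, 2721 and 2472 in Creso CTRL, 2866, 3279 and 3060 under MS and 5640, 6718 and 4168 under SS. CS had 1344, 1481 and 1238 in CTRL, 719, 865 and 892 under MS and 489, 597 and 491 under SS, and CS_5AL-10 had 2949, 3076 and 2272, then 2160, 2203 and 1786, then 1970, 1431 and 2585. The SS changes were 1.33 for Creso, -1.29 for CS and -0.42 for CS_5AL-10 (SE 0.21), without overlap in Creso and CS and with overlap in CS_5AL-10. Averaged over the water regimes CS was lower than Creso by -2.24 (SE 0.12, adjusted p = 4.9e-14) and lower than CS_5AL-10, which was higher by 1.36 (SE 0.12, adjusted p = 1.0e-08). The difference between CS and Creso also holds their opposite changes under MS and SS. In CTRL plants, as a description, it was -1.03. That value was -0.74 after quantile normalization, -0.79 with uncentred arrays and -0.58 with the endosperm covariate, under 2-fold in each. The arrays of CS and Creso lay apart, and CS_5AL-10 SS replicate 2 (1431) lay within the CS CTRL values. This was 1 of the 2 probe sets that differed between CS_5AL-10 and CS over the water regimes.

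The other was tau GST C (AT1G27130), higher in CS_5AL-10 than in CS by 1.14 (SE 0.16, adjusted p = 1.0e-05). It had 499, 599 and 492 in CS CTRL, 263, 210 and 194 under MS and 168, 279 and 277 under SS, against 1336, 1609 and 818 in CS_5AL-10 CTRL, 646, 939 and 513 under MS and 385, 375 and 517 under SS. The genotypes did not overlap within a water regime, although CS_5AL-10 MS replicate 3 and SS replicate 3 lay within the CTRL values of CS. The count of 2 became 4 without CS MS replicate 3. Creso had 426, 354 and 321 in CTRL and 543, 603 and 530 under SS, so its SS change was 0.72 against -1.06 in CS and -1.41 in CS_5AL-10 (SE 0.27).

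The brightest of the class, tau GST A (AT1G78380), had 10847, 10978 and 12074 in CS CTRL, 6071, 6787 and 5409 under MS and 3782, 4738 and 5234 under SS. CS_5AL-10 stayed between 4821 and 8024 on all 9 arrays, and Creso had 4039, 2605 and 4893 in CTRL and 4935, 6537 and 4495 under SS. Only in CS were SS arrays below all CTRL arrays, with a change of -1.26 (SE 0.25) against 0.04 in CS_5AL-10 and 0.63 in Creso. The dim tau GST F (AT1G59700) had 207, 300 and 348 in CS CTRL and 31.4, 54.4 and 6.05 under SS, and 242, 171 and 221 in CS_5AL-10 CTRL and 74.2, 24.5 and 24.8 under SS. Its log2 changes were -2.77 and -2.01 (SE 0.48), and all Creso arrays were at or below 56.8. Tau GST F passed the filter only through the CTRL groups of the bread wheats. Its SS arrays there were below the array median, where log2 values depend on the added constant. The microsomal GST (AT1G65820) had 411, 456 and 265 in CS_5AL-10 CTRL, 73, 129 and 110 under MS and 28.7, 41.4 and 59.7 under SS, a change of -2.66 (SE 0.39) against -0.96 in CS and 0.57 in Creso. Tau GST D and tau GST E were dim, with SS changes of -1.79 to -1.17 and of -0.74 to 0.68.

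**Figure D4:**
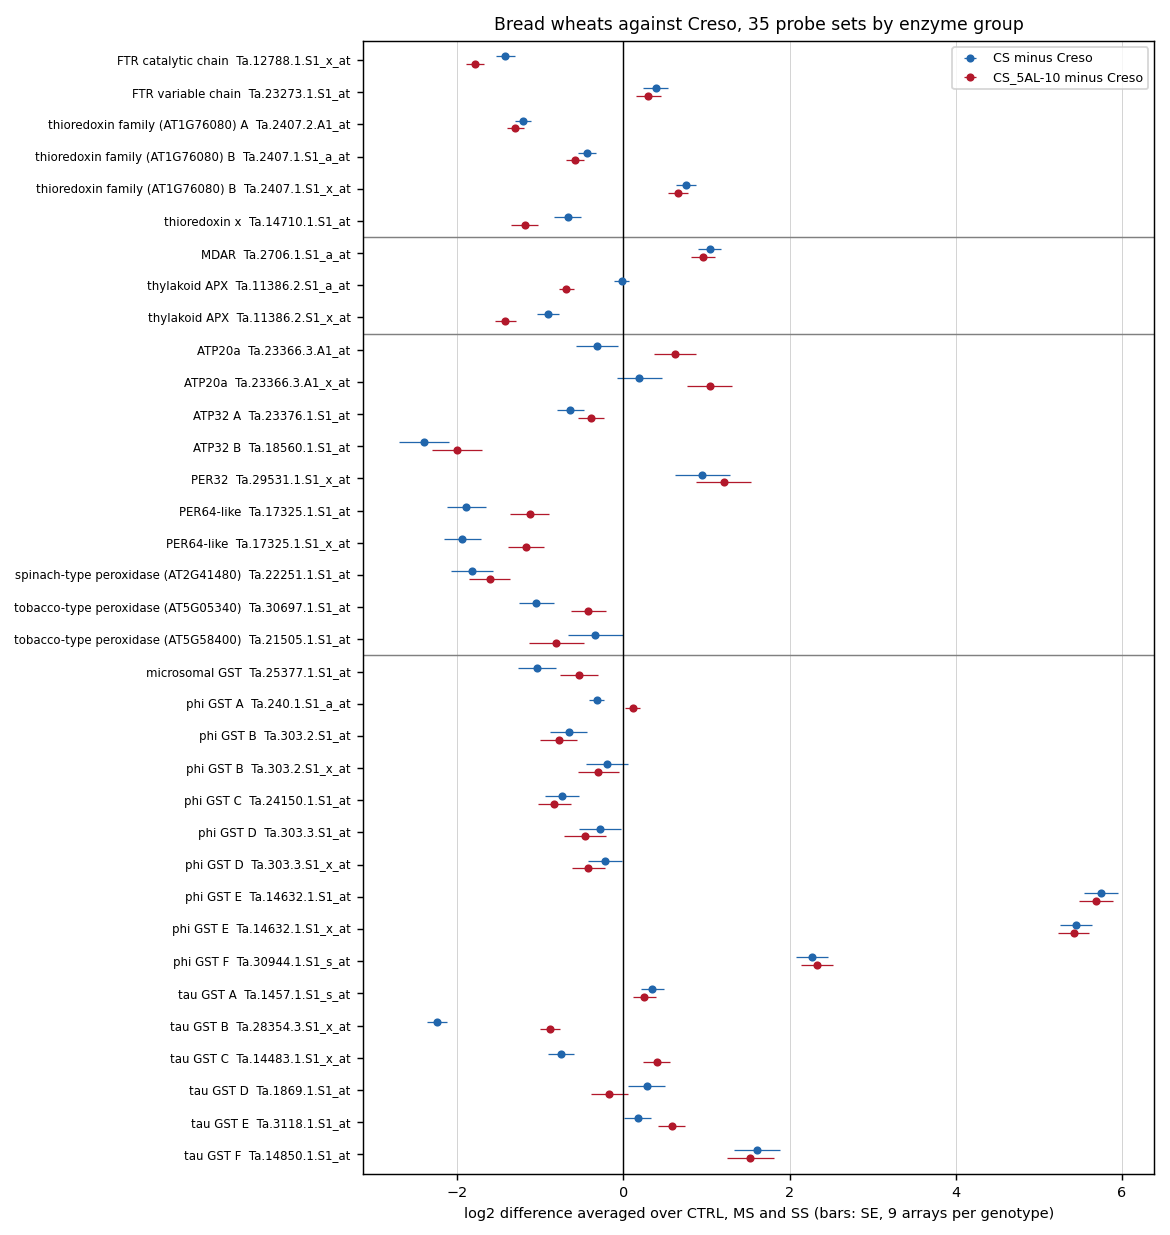
Log2 difference of CS and CS_5AL-10 from Creso, averaged over CTRL, MS and SS (horizontal axis), for the 35 probe sets by enzyme group, with the standard error of the fit as bars (9 arrays per genotype). The 2 probe sets of phi GST E, whose Creso signals were almost all below the array median, lie at 5.42 to 5.75, and all others lie between -2.4 and 2.33.

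In CTRL plants alone, whose arrays also entered the drought comparisons that chose the probe sets, the genotype differences are a description. CS exceeded Creso in 7 of the 35 and was below it in 9, against 15.4% and 15.5% of all tested. In CS_5AL-10 against Creso it was 8 and 9, against 16.3% and 14.8%, and in CS_5AL-10 against CS 3 and 0, against 0.848% and 1.2%. The 3 were tau GST C (1.2), tau GST B (1.04) and the microsomal GST (1.42). None of them passed the thresholds without CS CTRL replicate 3 or without CS_5AL-10 CTRL replicate 1 or 2.

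Other probe sets of the same UniGene clusters show how much of these results belongs to a single probe set. The array holds 28 such neighbours in 14 clusters, of which 18 passed the filter and 6 passed the thresholds in at least 1 drought comparison, against 16.2% of all tested. The 4 neighbours of tau GST B changed by -0.56 to -0.04 in Creso SS, where tau GST B itself had 1.33. The 4 neighbours of ATP20a changed by 0.1 to 0.39 in Creso SS, against -2.77 and -2.35. Over the water regimes CS exceeded Creso in 7 of the 18 neighbours and was below it in 4, against 14.9% and 13.1% of all tested. Their log2 differences ran from -5.35 to 7.29, at the upper end beyond the 5.75 of phi GST E. At both ends of this range 1 genotype was below the array median. Neighbours in 1 cluster went in opposite directions, with 2 of ATP20a higher in CS and 2 lower. The values near the limit of the selection were close to each other. The largest absolute log2 change over the 9 drought comparisons was 0.96 for tau GST E, the lowest among the 35, and 0.97 and 0.94 for 2 neighbours of ATP20a, which are not among the listed probe sets used here. A neighbour of phi GST B, also not among them, changed by -2.08 in CS_5AL-10 SS.

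Redox enzymes that the array's annotation names by symbol were taken without use of the study's drought list, and their changes were tested. The selection words matched only the 2 PER1 probe sets there, so the list was extended, after the files were seen, with the symbols of catalase CAT1, thioredoxin Trx-M, the zeta GST GSTZ1 and TaPrx1. The PER1 probe sets gave 0 calls in the drought comparisons, so every call comes from the added symbols. These were chosen with earlier results of these data known. The resulting 12 probe sets all passed the filter, and none of them is among the listed probe sets used here. Under SS 0 rose and 1 fell past the thresholds in Creso, 3 rose and 0 fell in CS, and 2 rose and 0 fell in CS_5AL-10, against the shares of all tested given above (4.45% and 2.87%, 3.61% and 2.26%, 2.72% and 2.97%). The Creso fall was TaPrx1 B, which passed the filter only through the bread wheats, with Creso signals around and below the array median. Under MS the only call was 1 rise in CS_5AL-10, where 0.777% of all tested rose. In Creso MS, where none was called, 2 of the 12 had an unadjusted p under 0.05 in limma and 0 in the t-test of the study's methods, and in CS MS 5 and 4. The share of all tested at an unadjusted p was not computed, so no excess can be read from these counts.

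CAT1, which breaks down hydrogen peroxide, rose under SS in all genotypes, past 2-fold in the bread wheats. CAT1 A had 21102, 25621 and 24318 in Creso CTRL, 26862, 24769 and 28096 under MS and 35315, 36104 and 32990 under SS. CS had 13072, 10845 and 10932, then 20765, 19010 and 20277, then 25968, 25952 and 26324, and CS_5AL-10 had 10443, 8997 and 7144, then 17231, 19705 and 21298, then 26015, 24185 and 23362. In both bread wheats the 3 water regimes did not overlap. CAT1 rose under SS by 1.22 log2 units in CS (SE 0.14, adjusted p = 4.4e-06) and by 1.56 in CS_5AL-10 (adjusted p = 8.2e-08), and by 0.69 in Creso (adjusted p = 0.00135), which is under 2-fold. In CS_5AL-10 under MS it rose by 1.1 (adjusted p = 8.1e-05), and by 0.94 without CTRL replicate 3, under 2-fold. The SS response was larger in CS_5AL-10 than in Creso by 0.87 (SE 0.19, adjusted p = 0.0126), which is under 2-fold. CTRL plants were lower than Creso by -1.27 in CS (adjusted p = 5.5e-08) and -1.64 in CS_5AL-10 (adjusted p = 5.8e-10). The photosynthesis and endosperm markers given above also differed between these groups, and with the endosperm covariate the counts of calls under SS were 2 in CS and 2 in CS_5AL-10. CAT1 B had 25.5 to 167 over all arrays and was not called in any drought comparison.

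TaPrx1 was measured by 4 probe sets of 1 cluster. The a_at probe set of TaPrx1 A had 2926, 2242 and 2090 in CS CTRL, 3970, 4253 and 3620 under MS and 5782, 5595 and 4997 under SS, against 7633, 7328 and 7093 in Creso CTRL and 8367, 9322 and 10499 in Creso SS, where the change of 0.48 did not pass the test (adjusted p = 0.125). It rose under SS by 1.23 in CS (SE 0.2, adjusted p = 3.5e-04) and by 1.44 in CS_5AL-10 (adjusted p = 4.7e-05), where it went from 1810, 1576 and 1606 to 3954, 5045 and 3990. The equally bright at probe set of TaPrx1 A changed under SS by 0.54 in CS and 0.71 in CS_5AL-10, neither called. Under MS it changed by -0.08 and -0.15, against 0.89 and 0.9 for the a_at probe set. TaPrx1 C changed under SS by 0.38 in CS and 0.52 in CS_5AL-10, also not called. TaPrx1 B had 29.8, 89.4 and 41.5 in Creso CTRL and 11.4, 10.2 and 3.5 under SS, against 1382, 1369 and 1135 in CS CTRL and 2487, 2563 and 2726 under SS. It rose in CS by 1.05 (SE 0.24, adjusted p = 0.0049) and fell in Creso by 1.31 (adjusted p = 5.3e-04) at signals around and below the array median. The rise was 0.95 without CS CTRL replicate 3 and 0.99 without CS SS replicate 3, and the Creso change was -1 and not called without Creso CTRL replicate 2 and -0.58 with an added constant of 64. As a description, the SS responses of TaPrx1 B in CS and CS_5AL-10 differed from that in Creso by 2.35 and 2.21. TaPrx1 B passed the filter only through the bread wheats, and these values include the low Creso signals.

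The remaining probe sets were not called in a drought comparison. Trx-M had 10029, 9283 and 8479 in CS_5AL-10 CTRL and 15135, 16954 and 13192 under SS, a change of 0.77 (SE 0.16, adjusted p = 0.00192), and was lower than Creso in CTRL plants by -1.1 in CS (adjusted p = 3.8e-06) and -1.7 in CS_5AL-10 (adjusted p = 3.7e-09). GSTZ1 B had 3742, 4363 and 4267 in Creso CTRL and 5458, 6034 and 5501 under SS, a change of 0.59 (adjusted p = 0.0169), against 2178, 2096 and 1772 in CS_5AL-10 CTRL and 1132, 1152 and 1352 under SS, a change of -0.65 (adjusted p = 0.00998). The 2 responses differed by -1.24 (SE 0.23, adjusted p = 0.00318). For the a_at and at probe sets of GSTZ1 A the same difference was 0.04 and -0.56 and did not pass in limma (adjusted p = 0.949 and 0.274). Opposite moves between genotypes, without overlap of centred values, were found for 3.44% of all tested probe sets under MS and for 3.85% under SS.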

How the data were processed

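Glume RNA of 27 samples was hybridised to the Affymetrix Wheat Genome Array, which carries 61290 probe sets. The deposited table holds 1 linear intensity per probe set and array, which the authors' processing notes credit to MAS5, version not given in the sources used here. The study's methods name RMA for its own comparisons, and the table is not on that scale: each array has a trimmed mean of 500.2 to 500.3. No depth applies to arrays, and the 3 arrays of a group limit the precision.

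After removal of 111 control probe sets, values were taken as log2(intensity + 16) and arrays were centred on a common median, since array medians ran from 59.1 to 99.07. Probe sets above the array median on all 3 arrays of at least 1 group were kept (34089). A model of 9 group means was fitted to all 27 arrays with limma 3.58.1 in R 4.3.3 with a variance trend, and p-values were adjusted by Benjamini-Hochberg over 34089 probe sets. The scripts were tested on simulated data. Members were found by words in the descriptions of the study's supplementary list, of which 1420 rows were used. Values on each array are given for the 3 brightest probe sets of each enzyme group, the 6 largest called genotype differences, the 6 largest drought changes in each direction and the called annotation probe sets, and for a few others chosen after their values were seen. The members and the lists were chosen with earlier results of these data known.

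Alternatives were the study's Welch test, quantile normalization, no centring, centring on kept probe sets, added constants of 1 and 64, a stricter filter, no filter, separate fits, no fold threshold, the replicate block and leaving out each array. The endosperm covariate and the extended annotation list were added after seeing the data. Marker probe sets were taken by gene symbol, because the planned words matched almost none. No column of values was left unused (0).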

Additional observations from a re-analysis of the deposited data

Results flagged for a closer look

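Opposite movements without overlap of centred values, in which 1 genotype lay wholly above its CTRL arrays and another wholly below, were found for 7 of the 35 probe sets. Their differences between the log2 responses were not tested, because those responses chose the probe sets, and such pairs were found for 3.44% of all tested probe sets under MS and 3.85% under SS. Between Creso and CS, the response of tau GST B differed by 0.99 under MS and 2.63 under SS, and that of tau GST A by 1.89 under SS, where the deposited Creso values overlap (4495 under SS, 4893 in CTRL). Tau GST C differed under SS by 1.79 between Creso and CS and by 2.13 between Creso and CS_5AL-10. Phi GST C differed by 1.92 under MS between Creso, with 5941, 7957 and 4971 against 3592, 2892 and 3674 in CTRL, and CS, with 1951, 2403 and 1579 against 3688, 5102 and 4394. Between Creso and CS_5AL-10 under SS, tau GST E differed by 1.42, the dim peroxidase ATP32 B by 2.24 and the dim spinach-type peroxidase by 1.21. ATP32 B changed by -1.41 in Creso SS, while an s_at probe set of the same sequence, not among the 35, changed by 0.89 there. In each tau GST pair the Creso arrays were the ones that moved up.

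In the annotation list the differences between responses were tested in limma, with p adjusted over all tested probe sets. Under SS TaPrx1 B differed from Creso by 2.35 in CS and 2.21 in CS_5AL-10. These 2 values are a description without a p-value, since TaPrx1 B passed the filter only through the bread wheats. Its Creso signals were near or below the array median. CS_5AL-10 also differed from Creso under SS in GSTZ1 B (-1.24, adjusted p = 0.00318). In CAT1 A (0.87, adjusted p = 0.0126) and in Trx-M (0.89, adjusted p = 0.025) the difference passed the adjusted p but was under 2-fold. GSTZ1 B moved in opposite directions without overlap, by a difference of 1.24 between Creso and CS_5AL-10 under SS, and between CS and CS_5AL-10 by 0.91 under MS and 1.06 under SS, where the tested difference did not pass the threshold. Under MS the CAT1 A response was larger in CS_5AL-10 than in Creso by 0.86 (adjusted p = 0.0325), under 2-fold. That of the a_at probe set of GSTZ1 A was larger in CS than in Creso by 0.96 (adjusted p = 0.0227), also under 2-fold. The at probe set of GSTZ1 A had 0.07 there (adjusted p = 0.923) and GSTZ1 B had 0.43 (adjusted p = 0.368), so this difference belongs to a single GSTZ1 probe set.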

How the results depend on the processing

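Of the genotype counts, those averaged over the water regimes (14, 14 and 2 for CS against Creso, CS_5AL-10 against Creso and CS_5AL-10 against CS) moved past 1.5 times with no fold threshold, to 26, 27 and 11, and the last also on leaving out 1 array. With no fold threshold 67.5%, 67.7% and 14.3% of all tested passed. The CTRL counts of 16, 17 and 3 became 8, 10 and 0 with the methods' t-test, the second became 10 with a stricter filter and the third 1 with the endosperm covariate. With the t-test, CS against Creso had 2253 higher and 2247 lower among the 34089 tested. CS_5AL-10 had 2535 and 2874 against Creso, and 0 and 18 against CS. The stricter filter had 2843 and 3403 of 18486 for CS_5AL-10 against Creso, and the covariate 274 and 447 of 34089 against CS. Over the water regimes the split of higher and lower calls, 5 and 9 for CS, 6 and 8 for CS_5AL-10, became 7 and 7, and 8 and 5, after quantile normalization and 6 and 6, and 7 and 5, with uncentred arrays, which moved the median of all probe sets between CS and Creso from -0.28 to -0.05. In the annotation list the count in Creso SS (1) was 0 with the t-test, a constant of 64, a separate fit or only the probe sets matched by words, and 5 with no fold threshold. CS MS (0) was 3 with no fold threshold, and CS SS (3) was 0 with the t-test or the words alone. CS_5AL-10 MS (1) was 0 with the t-test or the words alone, 2 with centring on kept probe sets and 3 with no fold threshold, and CS_5AL-10 SS (2) was 0, 0 and 6 with the t-test, the words alone and no fold threshold. With no fold threshold 14%, 5.71%, 4.59% and 11.6% of all tested passed in Creso SS, CS MS, CS_5AL-10 MS and CS_5AL-10 SS. The t-test left 0 calls after adjustment there, with 4, 4, 7, 3 and 7 probe sets at an unadjusted p under 0.05 in Creso SS, CS MS, CS SS, CS_5AL-10 MS and CS_5AL-10 SS, against 6, 5, 6, 4 and 7 in limma. No share of all tested at an unadjusted p was computed beside them. The median SS change of the peroxidases in CS was -1.51 with the endosperm covariate, and that of the thioredoxin system in Creso 0.63 after quantile normalization. Apart from construction (fewer probe sets listed, no fold needed) the cause was not tested. No result reversed (0 of those computed), and of 73 results for single probe sets 38 changed their call under a planned setting and 15 on leaving out 1 array.

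Leaving out 1 array gave 14 to 18, 16 to 18 and 0 to 3 calls in CTRL and 12 to 15, 13 to 15 and 2 to 4 over the water regimes. In the annotation list it gave 0 to 0, 0 to 2, 0 to 2, 2 to 3, 0 to 2 and 2 to 3 for Creso MS, Creso SS, CS MS, CS SS, CS_5AL-10 MS and CS_5AL-10 SS. The count was 2 in Creso SS without Creso CTRL replicate 1 and 0 without replicate 2, 2 in CS MS without CS CTRL replicate 1 and 1 without CS MS replicate 2. In CS_5AL-10 MS, omission of CTRL replicate 3 left 0 and omission of MS replicate 1 or 2 gave 2. Median SS changes in Creso, CS and CS_5AL-10 ranged over -0.47 to -0.02, 1.02 to 1.27 and 0.49 to 0.66 for the ascorbate cycle, -1.49 to -1.27, -1.4 to -0.51 and 0.04 to 0.51 for peroxidases, -0.48 to -0.21, -1.34 to -1.1 and -1.36 to -1.02 for GSTs, and 0.71 to 0.93, 1.09 to 1.27 and 1.16 to 1.4 for the thioredoxin system. Samples share only a replicate number: same-numbered samples correlated by -0.566 to 0.205, and in 0 of 12 comparisons was every pair over 0.1. With the replicate block the counts were 17, 17 and 2 in CTRL, 14, 14 and 2 over the water regimes and 0, 1, 0, 3, 1 and 2 in the annotation list. Probe sets near the lowest signals, such as PER32 and tau GST F, depend on the added constant.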
